A study of Homo sapiens with 11 samples.

Results

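The tag-richest mid-sized peaks of a JMJD1C library from Kasumi-1 cells are described here: 676 peaks on chromosomes 1 to 22 that were over 600 and up to 2000 bp long and held at least 200 tags. They were taken from a list of 36191 peaks (1.87%) after leaving out peaks within 1 Mb of any stretch of 3 Mb or more that lies between peaks and has none. The same length class, with the same exclusion, held 10812 peaks, of which the 676 were 6.25%, and the 10136 others served as the comparison. The members were chosen by their tag number and length, so both are given as a description, as are the fold enrichment and summit height that derive from the same tags. Positions are those of the hg19 build.

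JMJD1C is a large nuclear protein of the JmjC family, whose close relatives remove methyl groups from a lysine of histone H3. In leukaemia cells with the RUNX1-RUNX1T1 fusion it is known as a coactivator that is brought to DNA by the fusion and its partners, among them the basic helix-loop-helix factor LYL1. In chromatin immunoprecipitation followed by sequencing (ChIP-seq), a protein held at one place gives a tall summit with short slopes, while neighbouring sites or diffuse binding lengthen the peak. The number of tags in a peak therefore combines how high the summit is and how far the signal extends.

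The series holds 11 libraries, with 4 JMJD1C libraries, 4 LYL1 libraries and 3 input libraries from the leukaemia lines Kasumi-1, HL-60, NB4 and THP-1. The library used is the JMJD1C library of Kasumi-1, an established myeloblast line of acute myeloid leukaemia carrying RUNX1-RUNX1T1, grown in medium with 10% fetal bovine serum; its labels list no treatment. Chromatin was precipitated with a serum against the N-terminal part of JMJD1C made by the submitters, and the other 10 libraries were not analysed here. There is 1 library and no replicate, so every interval covers counting error or the spread over peaks, and no p-value is given. The library held 29330355 tags, of which 19897991 remained with 1 tag per position. Peaks were called without an input. From this list alone, tags that gather on repeats or on extra DNA copies cannot be told apart from binding at any site. An input library of Kasumi-1 is part of the series and is among the libraries not analysed here.

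Together the 676 peaks covered 0.852 Mb and held 192155 tags. That is 10.7% of the tags in all peaks and 0.966% of the filtered library. In the whole list they ranked from 15th to 883rd by tags. Another 28 peaks met the length and tag limits but lay beside long peak-free stretches. At least 200 tags were held by 875 autosomal peaks in all, of which 6 were no longer than 600 bp and 165 were longer than 2000 bp. Most tag-rich autosomal peaks were thus over 600 and up to 2000 bp long. These counts depend on how many peaks each length class holds and do not give how often its peaks were tag-rich.

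Tag numbers fell off steeply above the limit of 200. The median member held 254.5 tags (quartiles 219 and 315) and the highest 1322 tags. At least 300 tags were found in 199 members, at least 400 tags in 67 and at least 500 tags in 24. Lengths ran from 610 to 2000 bp with a median of 1214.5 bp, and 46 members were 800 bp or shorter while 165 were longer than 1500 bp. Values ran on across the limit. The 49 peaks with 200 to 204 tags had a median length of 1081 bp and a median fold of 17.66, and the 41 peaks with 195 to 199 tags had 1126 bp and 18.67. The plot of tags against length shows this continuous edge and how the lowest tag number of a called peak climbs with length.

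**Figure D1:**
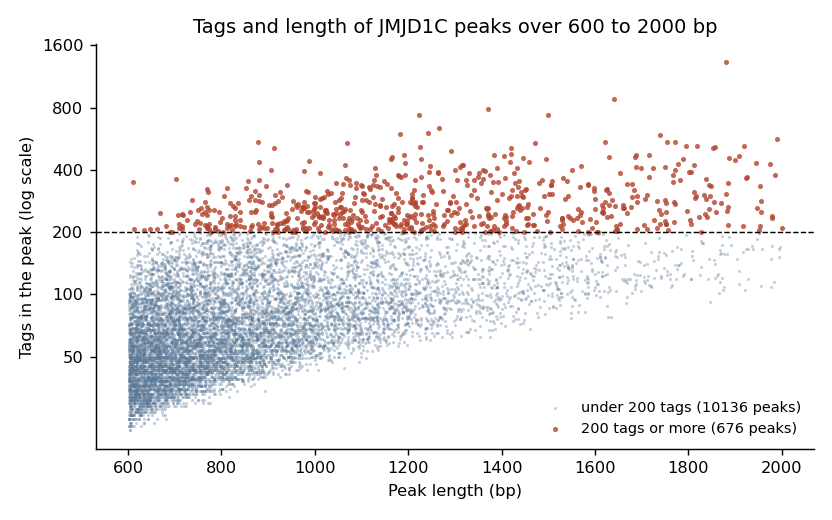
Tags in each peak (log scale) against peak length in bp for the 10812 autosomal peaks over 600 and up to 2000 bp; each point is a peak, red points hold 200 tags or more and the dashed line marks 200 tags. The 676 red points form a continuous edge with the 10136 blue ones and reach 1322 tags.

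The 20 members with the most tags held 518 to 1322 tags, had folds of 7.42 to 23.48 and lay on 11 chromosomes. Fold is the caller's ratio of the summit to a local background, estimated over 10 kb. The summit height is the number of overlapping 88-bp fragments at the highest point, recovered from fold and background. The surrounding signal is the number of tags outside the peak, scaled to 10 kb, with a median of 173 over the 632 members where it could be recovered. These quantities separate tall and isolated sites from sites in a raised neighbourhood.

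The highest tag number, 1322 (exact Poisson 95% interval 1252 to 1395), was at the very start of chromosome 5, chr5:9965-11844. Its summit lay near the left edge, at 12.4% of its length, its fold was 7.42, and no other peak lay nearer than 177 kb. It had the densest tags of all members, 703 tags per kb, which fill 35.2% of the positions on both strands. Its score was at the maximum the caller can write, so its background and summit height were not recovered. The tag-richest member was thus an isolated, lopsided block at a chromosome end with a fold well under the members' median of 18.61.

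Second was chr9:66970934-66972574 with 876 tags (819 to 936), a fold of 16.39 and a summit height of 170 fragments, the tallest recovered summit of any member. At 1 tag per position and strand, no summit can exceed 176 fragments, so this one was close to the ceiling. A second top member on the same chromosome, chr9:69710594-69711471, packed 545 tags (500 to 593) into 878 bp, with a height of 147 fragments and a fold of 20.15. It was the shortest of the 20. Both lie in the middle of chromosome 9, a part known for duplicated sequence, and both had a raised surrounding signal of 362 and 311 tags per 10 kb.

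Next came chr17:76587989-76589359 with 786 tags (732 to 843) in 1371 bp and a fold of 18.79. Its summit was close to the centre, at 54.0% of the length, and its score was at the maximum. On the same chromosome, chr17:79398272-79400010 held 586 tags (540 to 635) at a fold of 12.70 and a height of 80 fragments. That is the lowest height among the 17 of the 20 with a recovered value, and this member combined a modest summit with a length of 1739 bp.

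On chromosome 1, chr1:26867955-26869453 held 740 tags (688 to 795) at a fold of 18.40 and a height of 143 fragments, with a surrounding signal of 168 tags per 10 kb and no other peak within 10 kb. The peak chr1:226186731-226187995 reached the same height of 143 fragments with 634 tags (586 to 685) and a fold of 17.92, in a surrounding signal of 313 tags per 10 kb. Equal summits thus came with different neighbourhoods.

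Chromosome 12 contributed 3 of the 20. The peak chr12:68758424-68759647 held 738 tags (686 to 793) in 1224 bp at a fold of 16.10 and a score at the maximum, and 603 tags per kb placed it among the densest members. Further along, chr12:117500680-117502150 held 538 tags (493 to 585) at a fold of 16.64 and a height of 106 fragments. The last, chr12:111831048-111832841, held 523 tags (479 to 570) at a fold of 16.81 and a height of 126 fragments. In the 10-Mb windows of these 2 distal sites, isolated peaks had a surrounding signal of 128 tags per 10 kb, against 80.1 in that of the first.

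Chromosome 10 held the member of the 20 with the highest fold. The peak chr10:7549530-7550771 held 600 tags (553 to 650) at a fold of 23.48, with a height of 150 fragments, a surrounding signal of 144 tags per 10 kb and its nearest neighbour 18.9 kb away. A longer one, chr10:81045250-81047004, held 546 tags (501 to 594) at a fold of 15.20 and a height of 92 fragments. The first is tall and stands alone, while the second is 1755 bp long and lower.

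Chromosome 11 also held 3 of the 20. The peak chr11:122587184-122588805 held 545 tags (500 to 593) at a fold of 14.10 and a height of 87 fragments. Taller for fewer tags was chr11:33914327-33916246, with 524 tags (480 to 571), a fold of 18.35 and a height of 135 fragments, 5.62 times the mean height within the peak. The third, chr11:67044014-67045831, held 519 tags (475 to 566) at a fold of 14.14 and had 2 further members within 10 kb. These 3 peaks were all longer than 1500 bp but differed in how much of the signal sat at the summit.

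On chromosome 7, chr7:72625557-72627546 held 561 tags (516 to 609) at a fold of 19.26 and a height of 132 fragments. Its counterpart chr7:74594933-74596789 held 518 tags (474 to 565) at a fold of 18.44 and a height of 124 fragments. Both were long, at 1990 and 1857 bp, with an off-centre summit, at 22.96% of the length in the first and 79.1% in the second. Their values are close, with the summit near the opposite end.

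The remaining 3 differ in their surroundings. The peak chr21:9826677-9827858 held 597 tags (550 to 647) at a fold of 10.69 and had another peak 301 bp away. It lies within 1 Mb of the start of the called part of chromosome 21, ahead of which no peak was called, and is 1 of 3 members in such a place. The peak chr6:31527595-31528663 held 538 tags (493 to 585) at a fold of 10.72, and its neighbour, chr6:31526240-31527530, ended 64 bp before it and was itself a member. Their surrounding signals of 577 and 680 tags per 10 kb were the highest among the 17 of the 20 with a recovered value. On chromosome 14, chr14:23581802-23583572 held 546 tags (501 to 594) at a fold of 14.42 and a height of 107 fragments, with its summit at 16.9% of the length.

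Having the most tags was not the same as having the highest fold. None of the 20 members with the most tags was among the 20 members of highest fold (0 of 20). Unrelated lists of 20 out of 676 members would also share few peaks or none, so this 0 shows no avoidance. Among the 20 tallest with a recovered height were 8 of the 20 members with the most tags, and among the 20 densest 10. Over all members, Spearman's rho between tags and fold was -0.00058 (676 peaks), between tags and summit height 0.566 (625 peaks) and between length and fold -0.532. These describe peaks of 1 library, and tags, height and fold share the same reads. Members were chosen by a lower limit on tags, which narrows the range of tags behind these values. The value for tags and fold therefore does not show that the 2 are unrelated over the whole length class. The median fold was 18.61 in the members and 9.73 in the comparison peaks weighted to the members' lengths. The 3 members of highest fold were under 1000 bp long and had no other peak within 20 kb. The first was chr22:29351665-29352298, with 204 tags in 634 bp at a fold of 37.39 and a height of 102 fragments, 60.8 kb from any other peak. It was followed by chr12:8690346-8691274 with 294 tags and a fold of 36.50, and chr4:101460690-101461351 with 208 tags and a fold of 36.38. Above the highest fold of a member lay 11 of the 10136 comparison peaks.

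The longer a peak, the more often it was tag-rich. Of the peaks up to 900 bp, 93 of 7063 reached 200 tags (1.32%, exact Clopper-Pearson 95% interval 1.06% to 1.61%). The share was 9.45% (8.32% to 10.7%) from there to 1200 bp, 22.1% (19.3% to 25.02%) on to 1500 bp and 36.1% (31.7% to 40.7%) above 1500 bp. Length and tags both belong to the rule, so this trend describes the selection. Among members, the median height was lower in the long ones. The 93 shortest members had a median height of 87 fragments and a median fold of 25.60, and the 165 longest had 64 fragments and a fold of 15.02. A limit of 200 tags asks for more tags per bp in a short peak, so these values describe the selection as well. Comparison peaks, not weighted here, had a median height of 18 fragments up to 900 bp and 21 above 1500 bp. Their median folds there were 11.4 and 8.94. The tallest recovered summit, of 170 fragments on chromosome 9, nevertheless belonged to a peak of 1641 bp.

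Members were next set against peaks of fewer tags that were weighted, in bins of 100 bp, to the members' lengths. The weighted comparison peaks had a median length of 1216 bp and 104 tags. Their median fold was 9.73 (quartiles 7.52 and 13.1), against 18.61 in the members (95% order-statistic interval 18.08 to 19.17, quartiles 14.6 and 23.4). A fold of 20 or more was reached by 41.7% of members and 6.03% of the weighted comparison peaks. The median summit was 75 fragments high in 625 members (73 to 78, quartiles 60 and 91) and 20 in the comparison peaks (quartiles 15 and 30). The ratio of medians was 3.75 for height, 2.45 for tags and 1.91 for fold. The plot of height and fold by length shows that the ranges between the quartiles of summit height did not overlap in any bin of 200 bp.

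**Figure D2:**
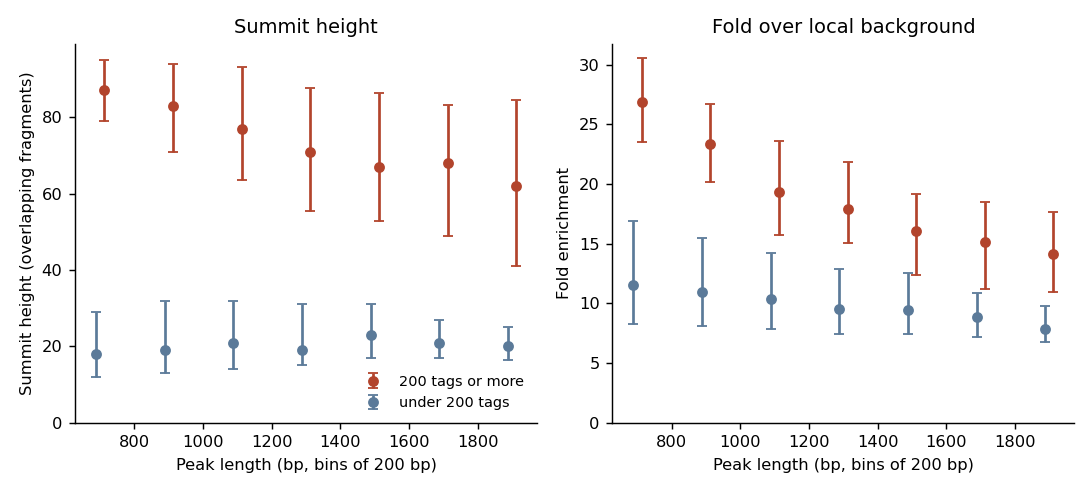
Summit height in overlapping fragments (left) and fold enrichment (right) against peak length in bins of 200 bp; points are medians over peaks and bars reach from the lower to the upper quartile, red for peaks with 200 tags or more and blue for peaks under 200 tags. Over all lengths the medians were 75 against 20 fragments and a fold of 18.61 against 9.73.

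Tag-rich peaks were more pointed than others of their length. The ratio of the summit to the mean height within the peak is computed from height, length and tags, the last 2 of which the rule used, and is a description. The summit was 3.69 times the mean height within the peak in the median member (3.60 to 3.76) and 2.84 times in the weighted comparison peaks. This ratio rose with length among members, from 3.19 up to 900 bp to 4.13 above 1500 bp, and likewise among the comparison peaks, from 2.60 to 2.996. The most pointed member was chr7:155142078-155143760, where 321 tags gave a height of 116 fragments, 6.91 times the mean, and a fold of 32.39. At the flat end, chr2:109815745-109816480 had 285 tags and a height of 67 fragments, 1.97 times the mean, and chr17:46124836-46126562 had 229 tags in 1727 bp but a height of only 25 fragments. A single number of tags can thus stand for a sharp spike or for a low plateau.

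The summit lay nearer the centre in tag-rich peaks. Its distance from the centre had a median of 10.9% of the length in members (9.98% to 12.02%) and 16.7% in the weighted comparison peaks. The rule did not use the position of the summit. The comparison peaks had a median height of 20 fragments, at which a summit is placed with few reads, and the part of this in the difference was not tested.

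Tag-rich peaks stood in richer surroundings. In 632 members the median surrounding signal was 173 tags per 10 kb (166 to 181), against 141 in the weighted comparison peaks, a ratio of 1.23. Other peaks within the window add to this signal. Among the 92 members with no other peak within 20 kb, 87 had a recovered value, and their median was 123 (106 to 134) against 107, a ratio of 1.15, where the comparison value lies just inside the interval. The isolated members kept a median height of 75 fragments against 17. The ratio for surroundings was thus 1.15 away from other peaks and 1.23 over all members with a value, and whether these differ was not tested. For height the ratio of medians was 4.41 away from other peaks and 3.75 over all members with a value.

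Surrounding signal and fold moved in opposite directions while height stayed level. In the 158 members with the lowest surrounding signal, up to 129 tags per 10 kb, the median fold was 24.33 and the median height 74 fragments. In the 158 with the highest signal, from 276 tags per 10 kb, they were 13.43 and 72 fragments. Fold divides by the background from which the signal was recovered, so its fall follows from that division. Over 625 members, Spearman's rho between surrounding signal and height was 0.0279. The 10 members of lowest fold had heights of 24 to 68 fragments, all under the members' median of 75. Fold is the ratio of summit to background, so picking the lowest folds also favours low summits.

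A fold under 8 was found in 27 members, and the lowest values came from a few neighbourhoods crowded with tags. On chromosome 1, 4 members filled the region chr1:564433-570390 almost without a break, with 297, 316, 426 and 356 tags. Their folds were 4.24 to 4.80, their heights 57, 64, 57 and 57 fragments, and their surrounding signal was 1318 to 1369 tags per 10 kb. On chromosome 2, 6 members lay in chr2:133011810-133031403, with 208 to 413 tags, folds of 4.14 to 9.93 and a surrounding signal of 436 to 1512 tags per 10 kb. The median surrounding signal over all members was 173. The surroundings of each of these 10 members were thus richer than those of the median member.

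Members occurred mostly singly, which was not set against equally many other peaks of the class. Joined up to 10 kb apart, 96 members (14.2%) shared a region with another member, and up to 50 kb apart 189 (28.0%). Joining members up to 10 kb apart left 623 regions: 580 with 1 member, 37 with a pair and 6 with 3 or more. The 6 were the regions on chromosomes 1 and 2 above and 4 others. On chromosome 19, chr19:8551787-8565674 held 3 members of 262 to 414 tags with folds of 25.60 to 31.83 and a surrounding signal of 130 to 184 tags per 10 kb, a group of separate tall peaks of 98 to 122 fragments. The second on that chromosome, chr19:36392731-36400863, held 3 members with folds of 12.59 to 23.64. On chromosome 11, chr11:67034808-67056725 held 3 members with 1039 tags in all, and on chromosome 17, chr17:72737669-72756077 held 3 with 873 tags in all. Within 200 bp of another peak of any size lay 50 members (7.40%), and 35 of them would exceed 2000 bp if such peaks were joined.

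Another called peak was found within 10 kb of 461 members (68.2%, exact interval 64.5% to 71.7%). In the whole length class the share was 59.9%, and in the weighted comparison peaks 58.9%. The excess over the weighted peaks was 9.27 percentage points, and 14.8 when only peaks under 100 tags served as comparison. It was not seen at the shortest distances. Within 2 kb the shares were 22.9% (19.8% to 26.3%) and 24.8%, and within 5 kb 39.8% (36.1% to 43.6%) and 38.4%, both inside the interval. A nearest peak between 5 and 10 kb away was found for 28.4% of members (25.03% to 32.0%) and 20.5% of the weighted comparison peaks. Within 20 kb the shares were 86.4% (83.6% to 88.9%) and 75.3%.

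The number of called neighbours stepped up at 5 kb. Between 2 and 5 kb from a member's summit there were 0.0774 other peaks per kb (exact Poisson 95% interval 0.0658 to 0.0905), and between 5 and 8 kb 0.133 (0.117 to 0.149). Around the weighted comparison peaks the values were 0.0680 and 0.0888. The neighbours themselves also differed across that distance. Those at 2 to 5 kb held a median of 125 tags and had a median background of 562 tags per 10 kb, and those at 5 to 8 kb held 58 tags over a background of 224. The 10th percentile of the neighbours' tags was 58 on the near side and 20.8 on the far side. The caller's background for a peak spans 10 kb, and a strong peak within it counts toward it; the part of this in the step was not tested. The neighbours counted are called peaks, whose number can differ from that of binding sites.

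**Figure D3:**
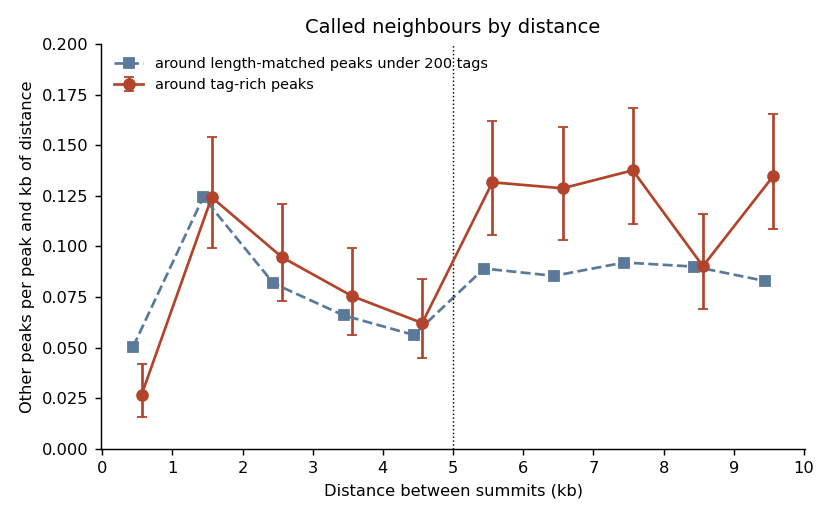
Other called peaks per peak and kb against the distance between summits in kb; red circles are counts around the 676 tag-rich peaks with exact Poisson 95% intervals, blue squares are counts around length-matched peaks under 200 tags, and the dotted line marks 5 kb. Around tag-rich peaks the value rises from 0.0621 at 4 to 5 kb to 0.132 at 5 to 6 kb.

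Tag-rich peaks were found on all 22 autosomes. Chromosome 1 held the most, 94 members, followed by chromosome 12 with 52, chromosome 17 with 49 and chromosome 19 with 43. Chromosome 13 held 7 and chromosome 18 held 8. These numbers largely follow how many peaks of the length class each chromosome has. Chromosome 17 held 7.25% of members (5.41% to 9.47%) and 6.55% of the class, but 4.33% of the peaks that reach 200 tags once tags are divided by the regional signal, as described below for all chromosomes. Chromosome 19 held 6.36% of members (4.64% to 8.47%) and 5.87% of the class. Against the overall 6.25%, the interval lay wholly above on chromosome 1, where 7.72% of the class were members (6.28% to 9.36%), and wholly below on chromosome 6, with 4.20% (2.71% to 6.18%). The intervals of the other 20 autosomes included it. These intervals count every peak as independent. On chromosome 1, however, 4 of the 94 members lay almost without a break in chr1:564433-570390, and the lower limit of 6.28% was barely above 6.25%. Among 22 intervals, some can also miss the overall share by chance, and they were not adjusted for their number. Whether chromosome 1 or 6 differs from the other autosomes was not tested.

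**Figure D4:**
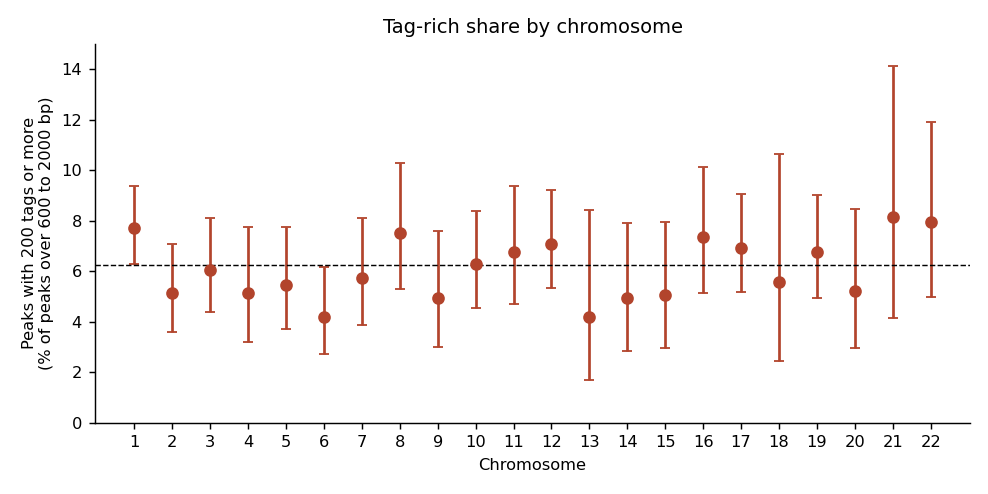
Peaks with 200 tags or more as a percentage of the peaks over 600 and up to 2000 bp on each autosome; points are shares, bars exact Clopper-Pearson 95% intervals, and the dashed line the share over all autosomes, 6.25%. The shares run from 4.19% on chromosome 13 to 8.15% on chromosome 21, and 2 intervals do not include the overall share.

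The share of members was set beside the local tag level, whose part in it was not tested. This level was taken from isolated peaks that are no members, in 266 autosomal windows of 10 Mb, with a median of 78.0 tags per 10 kb. The windows were divided into 3 equal groups by signal. In the lowest group 59 of 1615 peaks of the length class were members (3.65%, 2.79% to 4.69%). In the middle group it was 196 of 3290 (5.96%, 5.17% to 6.82%) and in the highest 421 of 5907 (7.13%, 6.48% to 7.81%). Dividing each peak's tags by its window's signal, relative to the autosomal median, left 554 peaks with at least 200 scaled tags. Of the 676 members 523 were among them (77.4% of members, 94.4% of the scaled list). The scaled shares were 5.33%, 5.96% and 4.60% from the lowest to the highest group, which is not the upward order of the shares as deposited. Dividing by the signal that ordered the groups raises the lowest group and lowers the highest by construction. The lost order is therefore a description and no test of the local tag level. Across the 22 autosomes, Spearman's rho between the share of members and the signal was 0.518, a description of points that share 1 library.

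Segments known from these data to have a raised signal differed in how scaling changed them. By construction, scaling lowers tags where the regional signal is above the autosomal median and raises them where it is below. On chromosome 12 beyond 100 Mb, 34 of 355 peaks were members (9.58%, 6.72% to 13.1%), against 18 of 378 (4.76%, 2.85% to 7.42%) on the rest of the chromosome, with signals of 127 and 76.9 tags per 10 kb. Scaled tags gave 14 and 19 peaks, or 3.94% and 5.03%. Chromosome 8 beyond 120 Mb had 24 of 215 (11.2%, 7.28% to 16.2%), against 11 of 251 (4.38%, 2.21% to 7.71%). There scaled tags left 17 and 10 peaks, or 7.91% (4.67% to 12.4%) and 3.98% (1.93% to 7.20%). On both chromosomes the intervals of segment and rest overlapped, before scaling as well as after. Before scaling they overlapped only slightly. Such overlap does not decide whether 2 shares differ, and the differences were not tested. On chromosome 3 beyond 180 Mb the shares were 8.33% and 5.33%, and 2.98% and 5.52% after scaling. The smallest difference was on chromosome 10, where the part before 90 Mb had 6.85% and the rest 4.62%, and 3.23% and 4.62% after scaling. In segments of low signal, members were 0 of 59 peaks on chromosome 2 beyond 200 Mb, which allows up to 6.06% by the exact interval, and 1 of 50 on chromosome 17 before 25 Mb (2.0%, 0.051% to 10.6%). The overall 6.25% lies inside the second interval and just above the first. There the signals were 63.5 and 61.0 tags per 10 kb, and scaled tags gave 3 and 2 peaks.

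**Figure D5:**
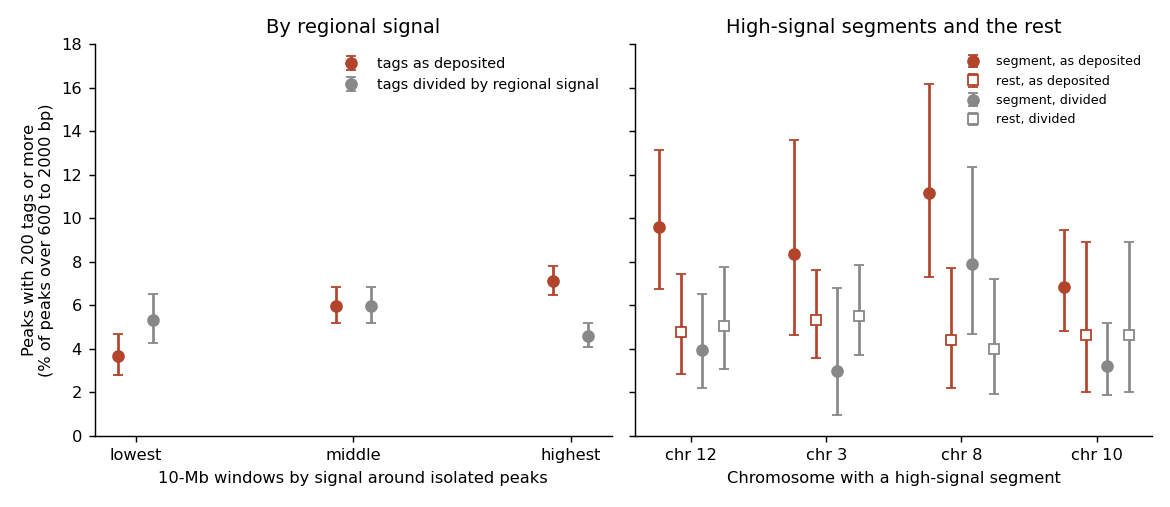
Peaks with 200 tags or more as a percentage of peaks over 600 and up to 2000 bp, with exact Clopper-Pearson 95% intervals, in 3 equal groups of 10-Mb windows ordered by signal (left) and in the high-signal segments of 4 chromosomes and the rest of each (right); red uses tags as deposited and grey tags divided by the regional signal. As deposited the share rises from 3.65% to 7.13% over the groups, and after division the highest group has 4.60%. Division by the signal that orders the groups lowers the highest group by construction.

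At the scale of 1 Mb, 431 of the 1791 windows with a peak of the class held a member. Of the 431, 280 held a single one and 10 held 5 or more. The fullest was chromosome 12 from 111 to 112 Mb, with 8 members among 25 peaks of the class and 219 to 523 tags each. Next were 4 windows with 6 members among 23, 36, 23 and 9 peaks of the class, in the order listed. These were chromosome 8 from 134 to 135 Mb, with folds of 17.30 to 28.33, chromosome 17 from 79 to 80 Mb, with folds of 7.85 to 18.90, chromosome 15 from 75 to 76 Mb, with folds of 10.14 to 32.42, and chromosome 2 from 133 to 134 Mb, the crowded region described above. The windows on chromosomes 12, 8 and 17 lie where the regional signal was 128, 98.5 and 113 tags per 10 kb, and those on chromosomes 15 and 2 where it was 80.9 and 79.4, near the autosomal median of 78.0.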

How the data were processed

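Per the submitters' processing notes, reads were handled on hg19, with Bowtie2 2.1.0 and HOMER among the tools. The authors called peaks with MACS 1.4.2 on 1 library without a control, per the file headers, keeping 1 tag per position, taking the background from 10000 bp and cutting at p-values of 1e-05. The deposited peaks carry their whole tag counts, a score (10 times the negative log10 p-value) and a fold, the ratio of summit to local background. The local background was solved here from tags and score by the Poisson tail over the peak length, and kept where it came within 0.05 of whole tags per 10 kb, or matched the lowest allowed background (73.7) within 0.15. That gave a value for 632 of 676 members. Fold times background gave a summit height within 0.1 of a whole number in 98.9% of those. Isolated peaks at the minimum make low regional signals upper limits, and windows with fewer than 15 isolated peaks took the value of their chromosome. The recovery was tested on simulated data made with the same formulas. That checks the calculation and not whether the caller used these formulas. Comparison peaks were weighted by length bins of 100 bp, the smallest with 22 peaks, and their medians and shares are treated as fixed. Members, the named segments and the rule of naming the 20 with the most tags were chosen with earlier results of these data known; other sites, named for extreme values or as groups, were chosen after their values were seen. No gene or sequence is given because no hg19 annotation or genome was used here. Matplotlib 3.10.9, pandas 2.3.3, SciPy 1.17.1 and NumPy 2.4.6 were run under Python 3.11.15.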

Additional observations from a re-analysis of the deposited data

How the results depend on the processing

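The number of peaks depends on the tag limit: 1400 at 150 tags and 199 at 300 tags. It was 704 with peaks beside long peak-free stretches kept, 579 with stretches of 1 Mb or more, 673 with scores above the median of the list, and, in alternatives chosen after seeing the data, 673 without peaks beside a peak-free chromosome start and 554 with tags scaled to the regional signal. A neighbour was found for 22.9% at up to 2 kb, for 96.4% at up to 50 kb and, at 300 tags, for 71.9%. Its difference from length-matched peaks reversed to -1.87 percentage points within 2 kb, was 4.20 within 50 kb and 14.8 against peaks under 100 tags, where 53 members had no counterpart of their length. It was 7.92 for neighbours between 5 and 10 kb and 9.28 with scaled tags. The difference in median fold was 8.88 and became 10.77 against peaks under 100 tags. Without other peaks within 20 kb, the surrounding signal was 123 tags per 10 kb and its ratio 1.15. The share on chromosome 17 was 4.33% with scaled tags, and that on chromosome 19 was 4.52% at 300 tags. The causes were not tested. Length bins of 50 or 200 bp changed no direction. The median summit of the comparison peaks was 20 fragments high, which limits how precisely it is placed. No paired analysis was possible because 1 library was analysed.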
